A study of Mus musculus with 16 samples.

Results

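The last 4 days of the withdrawal phase were described by comparing the libraries taken 12 days after doxycycline was removed with those taken 8 days after. The members are the libraries titled for these times, 2 of 12 days off (replicates A and B) and 2 of 8 days off (A and B), which makes 4 of the 16 libraries of the series, read over all 13652 genes of the count files. AML246 is a mouse acute myeloid leukaemia line, grown in medium with serum and interleukin-3. The cells of all 4 libraries received doxycycline at 0.1 µg/mL from day 0 to day 12 and were then kept without it. Thus 8 and 12 days off are days 20 and 24 of the course, and total viable cells were sorted for RNA. The series title connects the drug to restoring PU.1 and its removal to knocking PU.1 down again. The labels give neither the construct that does this nor whether the line is 1 clone, and untreated cells of the same late days are not analysed here.

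PU.1, encoded by Spi1, is an ETS-family transcription factor that binds purine-rich sites and drives the genes of neutrophils and macrophages. In acute myeloid leukaemia, low PU.1 activity is tied to a block of myeloid maturation, and raising it lets leukaemic cells mature. Ptgds, the lipocalin-type prostaglandin D synthase, and H2-Ab1, the beta chain of the class II molecule I-A, were the genes given to mark the step. The comparison asks which transcripts still moved between the second and the third sampling after withdrawal. By the second sampling the myeloid genes Itgam, Lcn2 and S100a9 were below their day 12 level on the drug. The granule protease genes Elane and Ctsg were above theirs.

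Total counts were 20446304 and 21809646 after 8 days off and 20416104 and 21356144 after 12, within the 12962801 to 26509803 of all libraries. Replicate A of 12 days off stood apart. Ribosomal protein transcripts took 4.83% of its counts against 2.99% in replicate B and 2.95% and 2.58% after 8 days off. Levels are given as CPM, counts per library normalised to TMM-scaled library size. Among the 9320 genes that averaged 10 CPM or more after 12 days off, 265 differed by over 2-fold between A and B (2.84%). The other 7 groups had 3 to 18 such genes. The standard deviation of log2 A over B was 0.474 after 12 days off and 0.0906 to 0.218 in the other groups. For that reason the main results below are also given from replicate A alone or replicate B alone over 8 days off. Whether A and B came from separate cultures is not stated, and the spread behind the p-values may therefore be technical.

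Spi1 itself did not differ by the test. It stood at 48.1 and 44.8 CPM after 8 days off (A and B) and at 54.8 and 37.2 CPM after 12 (log2 fold -0.02, SE 0.15, edgeR adjusted p = 0.96). Its 12-day libraries lay on either side of both 8-day libraries, with a log2 fold of 0.28 from replicate A alone and -0.32 from replicate B alone. Of the 13652 genes, edgeR's quasi-likelihood test called 507 (3.71%), with a Benjamini-Hochberg adjusted p under 0.05 as the threshold. Of these, 210 rose (1.54%) and 297 fell (2.18%), with 51 rises and 90 falls of over 2-fold. The spread behind this test was estimated over all 16 libraries, and the other groups differed less between replicates than 12 days off did. The p-values here and below may therefore understate the spread at 12 days off. An edgeR fit of the 4 libraries alone called 0 genes, with 1005 at an unadjusted p under 0.05. The libraries of the 2 times did not overlap for any of the 507 genes, against 6380 of all genes (46.7%). With library size alone as the scaling, the split was 151 rises and 335 falls. At the edge of the threshold stood the glycolytic enzyme Eno1, called at an adjusted p of 0.0497, and Glod4, not called at 0.0501, with log2 folds of 0.59 and 0.46.

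All 507 called genes moved in the same direction in replicate A and in replicate B. The calls were made from these same libraries, which did not overlap between the times, so this agreement follows from the selection. The size was larger in A for 445 of the 507 and larger in B for 62, and the median size was 0.95 on the log2 scale in A and 0.56 in B. Tested with replicate B as the only library of 12 days off, 127 of the 507 were still called, and with replicate A as the only one, 504. In all, edgeR called 146 genes without replicate A of 12 days off, 6159 without replicate B, and 125 and 29 without replicates A and B of 8 days off. Of the 71 called genes chosen by the naming rule, 11 stayed called whichever 1 of the 4 libraries was left out, among them Itgam, Lcn2, S100a9, Mcpt8, Ptgs1, Sec16b, Ablim1, Plec, Ifitm1 and Trgc1. The other 60 lost the call in 1 or more of these 4 fits. When a smooth trend on gene length was removed from each library, an alternative chosen after seeing the data, 796 genes were called (5.83%), and these held 429 of the 507.

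**Figure D1:**
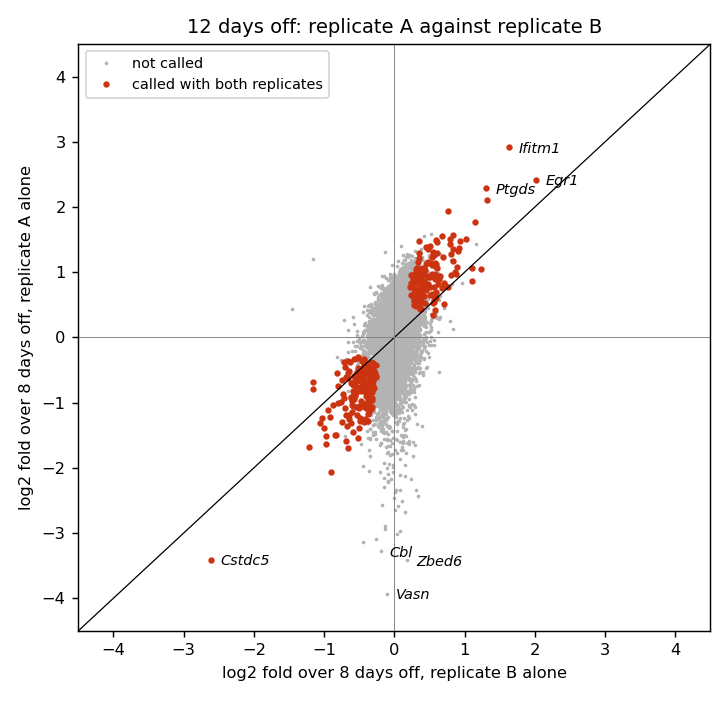
Log2 fold of each gene over 8 days off, from replicate A of 12 days off alone (vertical axis) against replicate B alone (horizontal axis), for genes that average 10 CPM or more, with called genes in red. The called genes lie in the lower left and upper right, mostly farther from 0 in replicate A than in B, while Cbl, Zbed6 and Vasn show a tail of genes far below 0 in replicate A and near 0 in replicate B.

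Genes of mature neutrophils and PU.1 targets were among the deep falls, and the start-site regions of 4 of them are shown here because they can be read for the PU.1 core motif. The windows hold 250 bases before and 50 bases after a gene start in RefSeq (GRCm38.p6): Itgam (chr7:128062390-128062689, plus strand), S100a8 (chr3:90668821-90669120, plus strand), Lcn2 (chr2:32387690-32387989, minus strand) and Elane (chr10:79886062-79886361, plus strand). Capitals mark GAGGAA, the ETS core preferred by PU.1, or TTCCTC, the same motif on the other strand.
Itgam: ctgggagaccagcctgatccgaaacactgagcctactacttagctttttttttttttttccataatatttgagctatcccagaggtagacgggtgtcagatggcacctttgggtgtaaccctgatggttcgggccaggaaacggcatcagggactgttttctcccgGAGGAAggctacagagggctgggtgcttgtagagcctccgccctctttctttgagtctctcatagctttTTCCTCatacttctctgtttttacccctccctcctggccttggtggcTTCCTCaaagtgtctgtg
S100a8: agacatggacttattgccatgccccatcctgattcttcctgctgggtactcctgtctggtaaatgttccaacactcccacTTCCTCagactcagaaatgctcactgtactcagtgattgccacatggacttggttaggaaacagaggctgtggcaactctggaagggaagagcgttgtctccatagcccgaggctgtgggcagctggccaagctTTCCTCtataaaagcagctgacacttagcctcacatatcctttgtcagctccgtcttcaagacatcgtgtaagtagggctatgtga
Lcn2: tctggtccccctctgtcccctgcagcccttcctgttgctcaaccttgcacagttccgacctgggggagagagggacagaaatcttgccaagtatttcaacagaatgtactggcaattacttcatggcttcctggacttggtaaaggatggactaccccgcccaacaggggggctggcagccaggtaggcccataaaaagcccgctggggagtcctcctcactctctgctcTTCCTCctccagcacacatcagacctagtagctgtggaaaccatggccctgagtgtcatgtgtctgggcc
Elane: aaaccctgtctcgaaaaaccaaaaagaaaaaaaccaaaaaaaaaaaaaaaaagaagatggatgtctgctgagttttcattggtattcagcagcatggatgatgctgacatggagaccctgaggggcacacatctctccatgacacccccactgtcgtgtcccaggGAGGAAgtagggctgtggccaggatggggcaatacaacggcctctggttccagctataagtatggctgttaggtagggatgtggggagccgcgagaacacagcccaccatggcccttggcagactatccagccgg
The window of Itgam holds the motif 3 times, that of S100a8 2 times, and those of Lcn2 and Elane 1 time each. A window of Ptgds, which rose, was also read and holds it 0 times. The windows shown are of picked genes and do not stand for all that fell. Over all genes, GAGGAA on either strand stood in a window of 105 of the 235 genes that fell and have one (44.7%), of 41 of 157 genes that rose (26.1%), and of 3112 of 10257 tested genes (30.3%), where a gene may have more than 1 window. Among all 32851 start-site windows in the table the share was 28.3%. The sets were not matched for the number of windows or for gene length, so nothing about PU.1 is read from the gap between these shares. A match in a window is a description of its letters and not a measured binding site.

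Itgam, which encodes the Cd11b integrin chain of mature myeloid cells (chr7:128062640-128118491, GRCm38, as for the positions below), had 4.23 and 5.34 CPM after 8 days off and 1.08 and 1.51 CPM after 12 (log2 fold -1.88, SE 0.27, edgeR adjusted p = 0.0025). Both 12-day libraries were below both 8-day libraries, and the gene was 3.68-fold lower. Replicate B alone gave a log2 fold of -1.67 and was called on its own (edgeR adjusted p = 0.036). In bulk RNA, fewer cells carrying a transcript and less of it per cell cannot be told apart, here and for each gene group below.

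For the counts of list members here and below, edgeR called 1.54% of all genes higher and 2.18% lower. Of the 35 gene lists, the neutrophil granule and maturation genes had the lowest median log2 fold. Lcn2, lipocalin 2 of the secondary granule (chr2:32384637-32387739), went from 8.09 and 12.2 CPM to 1.72 and 1.96 CPM (log2 fold -2.46, SE 0.21, edgeR adjusted p = 6.0e-05). Its replicates of 12 days off gave nearly the same fold, -2.52 from A and -2.37 from B on the log2 scale. S100a9, a subunit of calprotectin (chr3:90692630-90695721), had 5.46 and 8.17 CPM and then 0.344 and 0.730 CPM (log2 fold -3.64, SE 0.45, edgeR adjusted p = 0.0010). Its partner S100a8 rested on few reads, 36 and 59 after 8 days off and 2 and 6 after 12 (log2 fold -3.47, SE 0.62, edgeR adjusted p = 0.0093). Both 12-day libraries were the lower ones for each of these genes. Of the 15 neutrophil granule and maturation genes measured, 5 fell and 0 rose, with a median log2 fold of -1.21 against -0.01 over all genes. The other 2 falls were those of Padi4, which citrullinates histones in neutrophils (log2 fold -0.54), and Csf3r, the receptor of granulocyte colony-stimulating factor (-0.55). Of the 15 genes, 8 were under 1 CPM in all 4 libraries, among them Ltf, Camp and Ngp. The summed level of the list was 134 and 167 CPM after 8 days and 85.5 and 102 CPM after 12. The number of members called lower was 5 and 2 without replicates A and B of 8 days off and 2 without replicate A of 12 days off. With replicate B of 12 days off left out, 0 were called higher and 6 lower. The median of the list was -0.55 without replicate B of 8 days off, next to -0.53 for the macrophage and monocyte markers, and -1.55 without replicate B of 12 days off. It was -0.86 with limma-voom.

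Some PU.1 target genes fell as well. Of 22 measured PU.1 targets, 6 fell and 0 rose (median log2 fold -0.36), where 2.18% of all genes were called lower. With the gene length trend removed 9 fell, where 478 of all 13652 genes were called lower. Elane, neutrophil elastase (chr10:79886312-79888216), had 58.2 and 71.8 CPM after 8 days off and 24.2 and 32.6 CPM after 12 (log2 fold -1.19, SE 0.19, edgeR adjusted p = 0.0048). On the drug at day 12 Elane averaged 11.1 CPM, lower than at both times. Lyz2, lysozyme, had 51.1 and 57.6 CPM and then 34.2 and 34.3 CPM (log2 fold -0.67, SE 0.14, edgeR adjusted p = 0.019), with nearly equal replicates of 12 days off. Coro1a, an actin-binding protein of leukocytes, had a log2 fold of -0.56. Called with replicate B alone were Itgam, Elane and Coro1a, and also Ncf4, a subunit of the phagocyte oxidase, which was not among the 6. Without replicates A and B of 8 days off, in turn, 4 and 1 members were called, all lower, and without replicate A of 12 days off 4. Without replicate B of 12 days off 1 were called higher and 8 lower. Among the targets that were not called, Itgb2, the partner chain of Cd11b, had 480.3 and 491 CPM and then 295 and 385 CPM (log2 fold -0.52, SE 0.14, edgeR adjusted p = 0.051), and Mpo, myeloperoxidase, 405 and 359.9 and then 386 and 468 CPM (log2 fold 0.16, SE 0.17, edgeR adjusted p = 0.58).

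Of 20 Fc receptor and ITAM signalling genes, 7 fell and 0 rose (median log2 fold -0.42), where 2.18% of all genes were called lower. Trem1, an activating receptor of neutrophils and monocytes, had 0.988 and 2.38 CPM and then 0.344 and 0.365 CPM (log2 fold -2.24, SE 0.40, edgeR adjusted p = 0.0078). Clec5a, a lectin receptor that signals through an ITAM adaptor, went from 11 and 12 reads to 1 and 3 reads (log2 fold -2.40, SE 0.49, edgeR adjusted p = 0.016), so its size is poorly fixed. Members with more reads had smaller folds. Clec7a, the beta-glucan receptor Dectin-1, Syk, the kinase that binds ITAMs, Vav1, an exchange factor downstream of Syk, and Sirpa, an inhibitory receptor, had log2 folds of -0.65, -0.49, -0.43 and -0.41. The number of members called lower was 2 and 0 without replicates A and B of 8 days off and 1 without replicate A of 12 days off. With replicate B of 12 days off left out, 2 were called higher and 8 lower.

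Other granule and complement genes gave fewer calls. Of 10 azurophil granule genes, 2 fell and 0 rose, Elane and Ctsg, cathepsin G, which had 85.7 and 96.2 CPM and then 52.7 and 52.3 CPM (log2 fold -0.79, SE 0.15, edgeR adjusted p = 0.013). Both were called with replicate B alone. Prtn3, proteinase 3, gave -0.34 and was not called (edgeR adjusted p = 0.24). Ctsg averaged 35.2 CPM on the drug at day 12, lower than at both times. Of 10 complement genes, 2 fell, Itgam and C3, the central complement component (chr17:57203967-57228136), which had 18.4 and 27.9 CPM and then 7.07 and 9.94 CPM (log2 fold -1.44, SE 0.27, edgeR adjusted p = 0.011). Of 10 macrophage and monocyte markers, 1 fell (Lyz2) and 0 rose, with Csf1r, the receptor of macrophage colony-stimulating factor, at 4.09 and 2.60 CPM and 2.60 and 2.96 CPM.

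**Figure D2:**
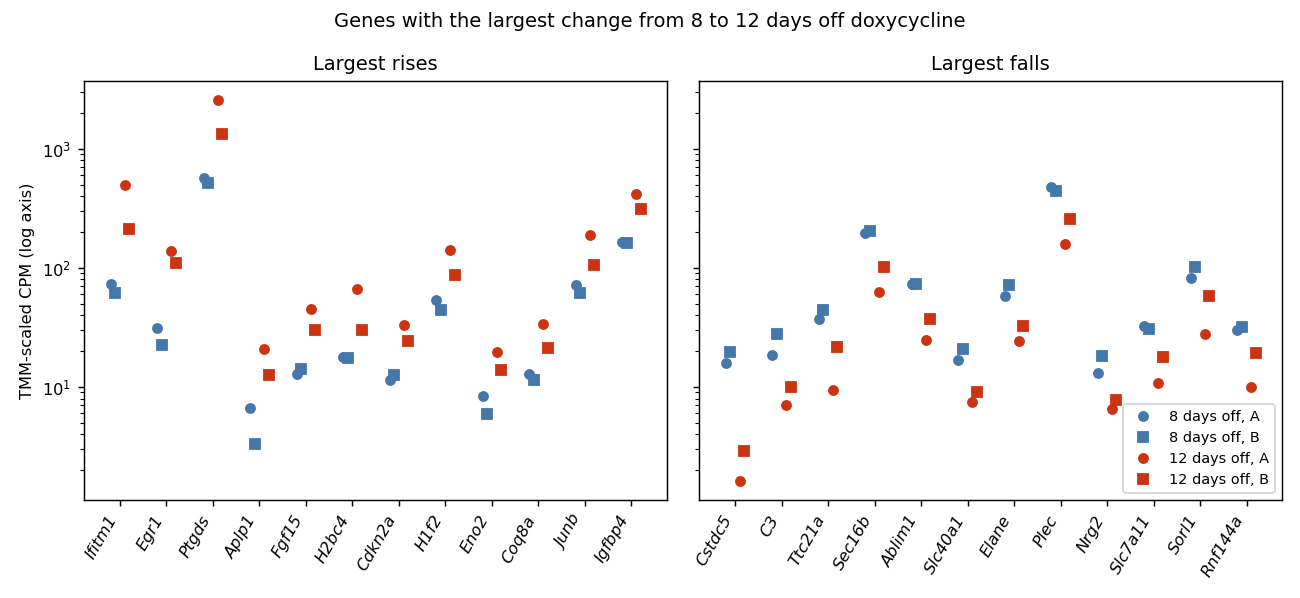
TMM-scaled CPM on a log axis in each of the 4 libraries for the 12 largest rises (left) and 12 largest falls (right) among called genes of at least 10 CPM, with circles for replicate A, squares for replicate B, blue for 8 days off and red for 12 days off. The genes were picked among those whose libraries do not overlap between the times, so both red points lie on 1 side of both blue points by choice. Predicted genes and Riken clones were left out. In all 24 the red circle (A) lies farther from the blue points than the red square (B).

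Among called genes of at least 10 CPM over the 4 libraries, predicted genes and Riken clones aside, the largest fall was that of Cstdc5. This stefin-type cysteine protease inhibitor (chr16:36359382-36367570) had 16.04 and 19.5 CPM and then 1.62 and 2.92 CPM (log2 fold -2.96, SE 0.36, edgeR adjusted p = 0.0013). With replicate B alone it was not called (edgeR adjusted p = 0.060). Cstdc5 has closely related neighbours, so its reads may be split among copies. Stfa1, a stefin gene beside it that was picked after its value was seen, also fell (log2 fold -3.20, from a mean of 8.51 to 0.926 CPM). Several falls were in genes outside the myeloid lists. Sec16b, a protein of endoplasmic reticulum exit sites, went from 195 and 203 CPM to 62.6 and 101 CPM (log2 fold -1.28, SE 0.16, edgeR adjusted p = 0.00075), and was called with replicate B alone (edgeR adjusted p = 0.00015). Slc40a1, the iron exporter ferroportin, had 16.8 and 20.9 CPM and then 7.41 and 9.08 CPM (log2 fold -1.19, SE 0.19, edgeR adjusted p = 0.0053). Slc7a11, the cystine transporter, had 32.5 and 30.9 CPM and then 10.9 and 17.8 CPM (log2 fold -1.14, SE 0.21, edgeR adjusted p = 0.0093). Plec, the cytolinker plectin, had 476 and 445 CPM and then 159 and 256 CPM, a log2 fold of -1.15 that became -0.57 with the gene length trend removed. Ttc21a, the actin-binding gene Ablim1, the neuregulin Nrg2, the sorting receptor Sorl1 and the ubiquitin ligase Rnf144a completed the 12, with log2 folds from -1.38 to -1.07. Of the 12 largest falls, 9 were called with replicate B alone, and Cstdc5, C3 (edgeR adjusted p = 0.13) and Sorl1 (0.21) were not.

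Ifitm1 encodes an interferon-inducible transmembrane protein. It had the largest rise among called genes of at least 10 CPM over the 4 libraries, predicted genes and Riken clones aside. Ifitm1 (chr7:140967429-140969827) had 73.8 and 61.7 CPM after 8 days off and 497 and 211 CPM after 12 (log2 fold 2.38, SE 0.27, edgeR adjusted p = 0.00073). Replicate A was 2.35-fold above replicate B, and both were above the 8-day libraries. Of 24 other interferon-stimulated genes edgeR called 0 in either direction (median log2 fold 0.07), with 7 at an unadjusted p under 0.05, while DESeq2 called 1 and limma-voom 0. Trgc1, a T cell receptor gamma constant gene with near-identical copies, averaged less and had a larger fold. It went from 1.03 and 0.662 CPM to 20.9 and 8.57 CPM (log2 fold 4.11, SE 0.48, edgeR adjusted p = 0.00073), while Cd3g, a T cell receptor complex chain, had 16.7 and 15.6 CPM and then 27.9 and 16.1 CPM and was not called (edgeR adjusted p = 0.21).

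Ptgds had the most reads among the 12 largest rises. Ptgds (chr2:25466709-25470110) had 564 and 512 CPM after 8 days off and 2558 and 1331 CPM after 12 (log2 fold 1.85, SE 0.27, edgeR adjusted p = 0.0048), a 3.61-fold rise. Replicate A was 1.92-fold above replicate B, and the log2 fold was 2.29 from A alone and 1.31 from B alone, the latter called on its own (edgeR adjusted p = 0.018). The enzyme upstream of it went the other way. Ptgs1, cyclooxygenase 1, had 34.6 and 41.8 CPM and then 18.8 and 22.4 CPM (log2 fold -0.89, SE 0.12, edgeR adjusted p = 0.0016), and Ptges, a prostaglandin E synthase, 6.40 and 7.20 CPM and then 4.17 and 4.52 CPM (log2 fold -0.64, SE 0.16, edgeR adjusted p = 0.043). Of 16 prostaglandin and leukotriene enzymes, 1 rose and 2 fell, and the summed level of the list, 1778 and 1737 CPM after 8 days and 3794 and 2456 CPM after 12, followed Ptgds.

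H2-Ab1 did not pass the test. It had 50.8 and 38.4 CPM after 8 days off and 105 and 62.8 CPM after 12 (log2 fold 0.91, SE 0.30, edgeR adjusted p = 0.092). The libraries did not overlap, but the fold rested more on replicate A (1.27) than on replicate B (0.49, edgeR adjusted p = 0.58). Of 13 class II and antigen presentation genes, 2 rose and 0 fell: H2-DMb1 (30.4 and 30.7 CPM, then 56.9 and 38.9 CPM) and H2-DMa (4.61 and 4.86 CPM, then 8.59 and 7.02 CPM), the chains of the peptide-loading molecule H2-DM. Neither was called with replicate B alone, and H2-DMa was not called once the gene length trend was removed (edgeR adjusted p = 0.20). The other classical class II genes were low, with H2-Aa, the alpha chain that pairs with H2-Ab1, at 0.0470 and 0.177 CPM and then 0.540 and 0.319 CPM and the invariant chain Cd74 under 1 CPM in all 4 libraries.

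Some genes of the MHC class I molecule rose, where edgeR called 1.54% of all genes higher. Of 12 class I and peptide loading genes, 4 rose and 0 fell (median log2 fold 0.38, and 0.19 with the gene length trend removed). B2m, the shared light chain, had 621 and 631 CPM after 8 days off and 1177 and 839 CPM after 12 (log2 fold 0.69, SE 0.13, edgeR adjusted p = 0.013). The heavy chains H2-K1, H2-Q4 and H2-D1 had log2 folds of 0.61, 0.63 and 0.45, and reads may be split among these near-identical genes. In all 4 genes replicate A was the higher 12-day library and replicate B the lower, and with replicate B as the only 12-day library edgeR called 0 of the 12 (5 at an unadjusted p under 0.05). Leaving out replicate A or B of 8 days off or replicate A of 12 days off left 0 members called, and leaving out replicate B of 12 days off gave 8 called higher and 1 lower. B2m gave 0.95 from replicate A and 0.42 from replicate B.

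Egr1, an early growth response transcription factor, rose with little difference between replicates. It had 31.5 and 22.3 CPM after 8 days off and 139.8 and 109 CPM after 12 (log2 fold 2.21, SE 0.29, edgeR adjusted p = 0.0023), with a log2 fold of 2.42 from A alone and 2.02 from B alone. Of 19 immediate-early genes, 3 rose and 0 fell. The other rises were Junb, an AP-1 subunit (72.2 and 61.3 CPM, then 190.1 and 106 CPM, log2 fold 1.15, SE 0.20, edgeR adjusted p = 0.0074), and Ier2 (233 and 214 CPM, then 566 and 305 CPM, log2 fold 0.96, SE 0.21, edgeR adjusted p = 0.021). Egr1 and Junb were called with replicate B alone and Ier2 was not. Socs1, a feedback inhibitor of JAK kinases, and the survival kinase Pim2 rose among 21 genes of interleukin-3 and JAK-STAT signalling (log2 folds 0.83 and 0.70), while Il5ra, the interleukin-5 receptor alpha chain, fell (-0.97). Lif, leukaemia inhibitory factor, was the 1 of 13 cytokine and chemokine genes called, with 2.78 and 2.47 CPM and then 12.03 and 6.43 CPM (log2 fold 1.81, SE 0.36, edgeR adjusted p = 0.016). It was not called with replicate B alone (edgeR adjusted p = 0.11), and the list had 0 calls without replicate A or B of 8 days off. Of the signalling genes, Socs1, Pim2 and Il5ra were not called with replicate B alone either.

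Several cholesterol synthesis genes rose, where edgeR called 1.54% of all genes higher. Of 24 genes, 7 rose and 0 fell (median log2 fold 0.26), and 4 of the 7 were called with replicate B alone. Hmgcs1, the synthase that makes HMG-CoA (chr13:119690351-119708260), had 225 and 214 CPM after 8 days off and 383 and 360.0 CPM after 12 (log2 fold 0.76, SE 0.12, edgeR adjusted p = 0.0053). Its replicates of 12 days off were nearly equal. Fdft1, squalene synthase, had 62.2 and 58.8 CPM and then 111 and 86.0 CPM (log2 fold 0.71, SE 0.13, edgeR adjusted p = 0.011). Among the other rises were Mvd, Fdps, Sqle and Msmo1, enzymes along the same pathway, with log2 folds of 0.74, 0.54, 0.51 and 0.77. With the gene length trend removed 9 of the 24 rose, and with library size as the scaling 6. The number of members called higher was 3 and 1 without replicates A and B of 8 days off and 4 without replicate A of 12 days off. With replicate B of 12 days off left out, 10 were called higher and 1 lower. Among 14 fatty acid synthesis genes the 1 call was Acss2, which makes acetyl-CoA from acetate (61.7 and 53.6 CPM, then 86.0 and 86.3 CPM, log2 fold 0.58, SE 0.11, edgeR adjusted p = 0.011).

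**Figure D3:**
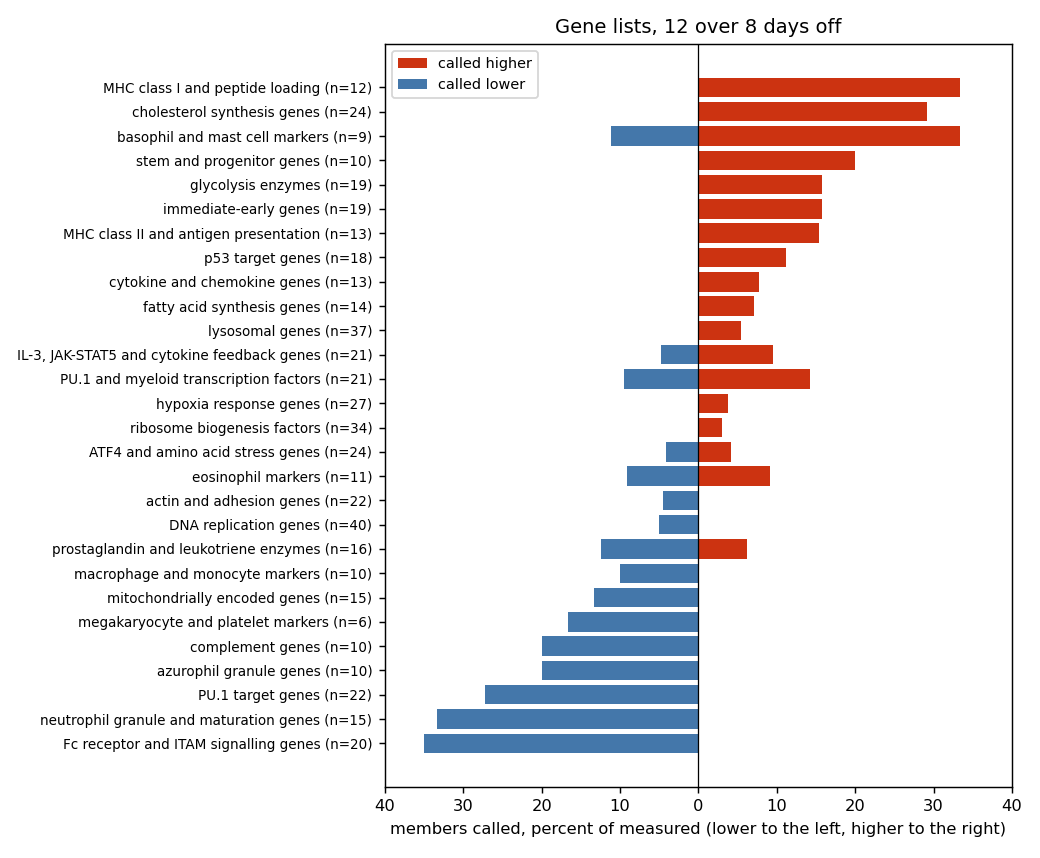
Percent of the measured members of each gene list called higher (red, to the right) or lower (blue, to the left) after 12 days off than after 8, with the number of measured members in brackets and lists with no call left out. Fc receptor, neutrophil and PU.1 target lists have calls to the left alone, and MHC class I and cholesterol synthesis lists to the right alone. Other lists also have calls on 1 side alone, such as complement genes to the left and glycolysis enzymes to the right.

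Other rises among the largest were spread over functions. Fgf15, a fibroblast growth factor, had 12.9 and 14.0 CPM and then 44.8 and 29.9 CPM (log2 fold 1.47, SE 0.23, edgeR adjusted p = 0.0048). Igfbp4, a binding protein of insulin-like growth factors, had 166 and 162 CPM and then 414 and 309.6 CPM (log2 fold 1.14, SE 0.19, edgeR adjusted p = 0.0061). Both were called with replicate B alone. Cdkn2a, which encodes the cell cycle inhibitor p16 and the p53 activator p19Arf, had 11.4 and 12.6 CPM and then 33.3 and 24.3 CPM (log2 fold 1.26, SE 0.24, edgeR adjusted p = 0.012). Its log2 fold was 1.51 from replicate A alone and 1.02 from replicate B alone. The histone genes H1f2 and H2bc4 gave 1.22 and 1.43. Aplp1, an amyloid precursor-like protein, gave 1.74, and Coq8a, a kinase-like protein of coenzyme Q synthesis, 1.17. From replicate A alone Aplp1 gave 2.11, and from replicate B alone 1.32. Eno2, an enolase, gave 1.21, and with Aldoa (0.70) and Eno1 it made the 3 rises among 19 glycolysis enzymes. None of these 3 was called with replicate B alone.

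Genes of other blood lineages gave mixed directions. Gata2, a transcription factor of progenitors, mast cells and basophils, had 478 and 398 CPM and then 761 and 594 CPM (log2 fold 0.63, SE 0.16, edgeR adjusted p = 0.039). Of 9 basophil and mast cell markers 3 rose, Gata2, the serine protease Prss34 (0.99) and the carboxypeptidase Cpa3 (0.56), and 1 fell, Mcpt8, a basophil protease, from 5.32 and 4.86 CPM to 1.96 and 1.60 CPM (log2 fold -1.51, SE 0.18, edgeR adjusted p = 0.00073). None of the 3 rises was called with replicate B alone (edgeR adjusted p = 0.23, 0.13 and 0.25) or without replicate A or B of 8 days off, while 1 fall was called in each of these settings. The summed level of this list was 1970.4 and 1723 CPM after 8 days and 2782 and 2278 CPM after 12. Of 11 eosinophil markers, Prg2, the major basic protein, rose (218 and 169 CPM, then 399 and 360.2 CPM, log2 fold 0.97, SE 0.22, edgeR adjusted p = 0.030) and Il5ra fell. Prg2 was not called once the gene length trend was removed (edgeR adjusted p = 0.099). Its log2 fold was 1.08 from replicate A alone and 0.90 from replicate B alone. Epx, eosinophil peroxidase, had 2429 and 2005 CPM and then 3803 and 3919 CPM and was not called (edgeR adjusted p = 0.13).

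Of 6 megakaryocyte and platelet markers 1 fell, Itgb3, the beta-3 integrin (29.7 and 28.2 CPM, then 9.62 and 20.2 CPM, log2 fold -0.95, SE 0.23, edgeR adjusted p = 0.035). Its log2 fold was -1.55 from replicate A alone and -0.52 from replicate B alone. Of 6 dendritic cell, 3 B cell, 6 T and NK cell and 4 erythroid markers edgeR called 0, with 1, 1, 1 and 2 of them at an unadjusted p under 0.05. DESeq2 called 1 dendritic cell and 1 erythroid marker and limma-voom 0. The B cell markers summed to 4.85 and 5.12 CPM after 8 days and 5.30 and 5.56 CPM after 12. Among 10 stem and progenitor genes, Gata2 and Muc13, a mucin, rose (Muc13 22.1 and 18.3 CPM, then 34.2 and 33.2 CPM, log2 fold 0.74, SE 0.15, edgeR adjusted p = 0.017). Of 21 myeloid transcription factors, Gata2, Egr1 and Gfi1b, a repressor that acts in the erythroid and platelet lineages (0.95), rose. Gfi1, a repressor needed for neutrophils, fell from 247 and 269.9 CPM to 170.2 and 189.6 CPM (log2 fold -0.52, SE 0.10, edgeR adjusted p = 0.014), and Lmo2, an adaptor of progenitor transcription complexes, from 37.0 and 38.7 CPM to 24.4 and 26.0 CPM (log2 fold -0.59, SE 0.11, edgeR adjusted p = 0.012). From replicates A and B alone, the log2 folds of Gfi1 were -0.56 and -0.45.

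Mitosis and DNA replication genes were called at about the rate of all genes (3.71%), so their counts show nothing particular to proliferation. Of 30 mitosis genes edgeR called 0 (6 at an unadjusted p under 0.05), and DESeq2 and limma-voom called 1 each. Of 40 DNA replication genes 2 fell. These were Tk1, thymidine kinase (32.7 and 35.4 CPM, then 22.6 and 21.5 CPM, log2 fold -0.63, SE 0.10, edgeR adjusted p = 0.0045), and the primase subunit Prim1 (-0.41). Tk1 had nearly equal replicates of 12 days off. Prim1 gave -0.35 from replicate A alone and -0.43 from replicate B alone. With replicate B of 12 days off left out, 11 mitosis genes were called higher and 4 lower, and 7 and 8 DNA replication genes. Of 15 mitochondrially encoded genes 2 fell, the complex I subunit ND2 (-0.63) and cytochrome b, CYTB (-0.51). From replicate A alone ND2 and CYTB gave -0.82 and -0.54, and from replicate B alone -0.42 and -0.44. Mitochondrial transcripts took 2.79% and 2.84% of the counts after 8 days off and 2.14% and 2.55% after 12. Of 18 p53 target genes 2 rose, Pmaip1, the cell death gene Noxa, and Trp53inp1, an autophagy and stress gene, with log2 folds of 0.55 and 0.43, both called with replicate B alone.

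The replicates of 12 days off disagreed mainly in 1 direction. Of the 265 genes that differed by over 2-fold, 238 were lower in replicate A and 27 higher. For 217 of the 238, replicate B lay within 1.2-fold of the range of the 8-day libraries, and replicate A did for 0. Zbed6, a transcriptional repressor derived from a transposon, had 68.5 and 60.2 CPM after 8 days off, 5.84 CPM in replicate A and 72.8 CPM in replicate B. Vasn, a TGF-beta binding protein, had 24.9 and 22.998 CPM, then 1.52 and 22.3 CPM. Cbl, a ubiquitin ligase of receptor kinases, had 39.8 and 45.8 CPM, then 4.27 and 37.4 CPM. For these 3 genes, replicate A alone was low and the other 3 libraries were close together. The same held for Ago2, the slicing Argonaute of the microRNA pathway (75.4 and 68.7 CPM, then 12.3 and 77.9 CPM), and for Cep85l, Lmbrd2, the kinase gene Uhmk1 and the ubiquitin ligase gene Trim56, in which replicate B was 6.40- to 7.70-fold above replicate A. None of these 8 genes was called. Of the 238, 3 were called, each as a fall, against 3.71% of all genes tested. A wide gap between the 12-day replicates itself makes a call less likely, so nothing is read from this count.

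Genes higher in replicate A were short. The median gene length was 697 bases for the 27 genes higher in A, 5644 for the 238 lower in A, and 2850 for all 9320. By their symbols, 12 of the 27 are predicted genes or pseudogenes, whose reads may belong to near-identical copies. ND3, a mitochondrial complex I subunit, had 5.88 and 5.83 CPM after 8 days off, then 20.5 and 4.74 CPM. Cox6a2, a subunit of cytochrome oxidase, had 7.15 and 4.11 CPM, then 21.4 and 6.29 CPM, and Angptl6, an angiopoietin-like factor, 7.20 and 4.72 CPM, then 18.8 and 6.52 CPM. In these 3 genes replicate B lay close to 8 days off and replicate A above it. Mir703 and the pseudogenes Rps12-ps10 and Rpl17-ps9 also stood in the first 8, with A 4.77-, 3.51- and 2.57-fold above B. Ifitm1 and Trgc1 completed the 8, and unlike the other 6 they were called, with both replicates above 8 days off. Of the 27, 4 were called, all as rises, against 3.71% of all genes tested, and nothing is read from so small a count.

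**Figure D4:**
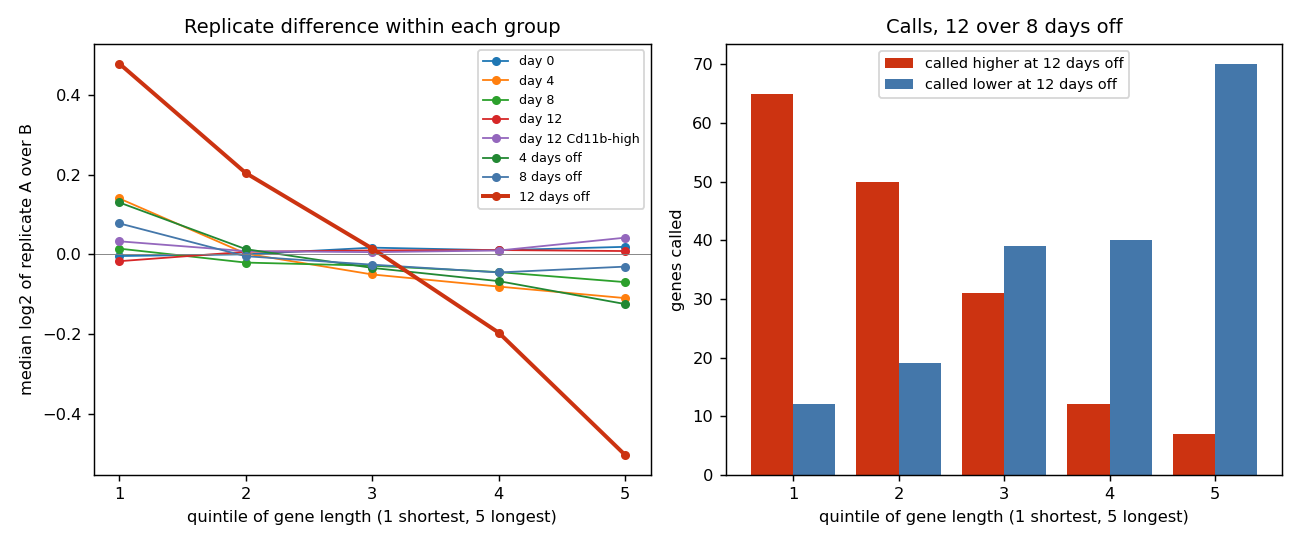
Left, median log2 of replicate A over replicate B in each quintile of gene length (1 the shortest) for each of the 8 groups. Right, number of genes called higher (red) and lower (blue) after 12 days off in the same quintiles. The line of 12 days off runs from 0.48 to -0.50, and the calls go from 65 higher and 12 lower to 7 higher and 70 lower.

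The difference between the replicates followed gene length. In 9348 genes of at least 10 CPM over the 4 libraries, divided into quintiles of length, the median log2 of A over B after 12 days off was 0.48 in the shortest quintile (up to 1580 bases) and -0.50 in the longest (from 4749 bases). After 8 days off the same medians were 0.08 and -0.03. Across genes, Spearman's rho of A over B with length was -0.77 after 12 days off and -0.28 after 8, as a description, since genes of 1 library share its preparation. Against transcript features of GENCODE vM21 for 8879 of these genes, rho was -0.78 for transcript length, -0.61 for coding length, -0.55 for untranslated length and 0.34 for GC content. The fold over 8 days off had a rho of -0.73 with deposited length from replicate A alone and -0.09 from replicate B alone.

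The calls were spread unevenly over length. In the shortest quintile 65 genes rose and 12 fell, and in the longest 7 rose and 70 fell. With the length trend removed these counts became 43 and 54, and 63 and 81. Of the myeloid falls, Elane and Lyz2 were in the shortest quintile, and Lcn2 and S100a9, which averaged under 10 CPM and are in no quintile, are as short. Without the trend the log2 folds of Lcn2, S100a9, Elane and Lyz2 were -2.77, -4.07, -1.44 and -0.91. The falls of the longer genes Itgam, C3 and Vav1 became smaller. Itgam went from -1.88 to -1.74, C3 from -1.44 to -1.27 and Vav1 from -0.43 to -0.31. Rises of short genes became smaller. B2m went from 0.69 to 0.37, Ptgds from 1.85 to 1.48 and Prg2 from 0.97 to 0.68. Of the named called genes, Prg2 and H2-DMa were among those no longer called. What this difference between the replicates comes from was not tested.

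Whether the last step repeated the step before it was tested as the difference of the 2 steps, which share the 8-day libraries. The change from 8 to 12 days off differed from the change from 4 to 8 days off in 117 genes (0.857%), of which 22 were also among the 507. Ptgds was higher at each time, with the larger step first, with means of 18.8, 538 and 1944 CPM after 4, 8 and 12 days off (difference -2.98, SE 0.46, edgeR adjusted p = 0.0095). Itgam was lower at each time, with the larger drop first, at 69.7, 4.79 and 1.29 CPM (difference 1.98, SE 0.41, edgeR adjusted p = 0.039). Elane turned, at 26.5, 65.0 and 28.4 CPM (difference -2.49, SE 0.31, edgeR adjusted p = 0.0033), higher after 8 days off than at the times on either side. Of the 12 class I and peptide loading genes 5 passed this test, all with the later step the higher one. B2m had 912, 626 and 1008 CPM (difference 1.23, SE 0.23, edgeR adjusted p = 0.025) and was lowest after 8 days off, as were H2-K1 (2214, 1603 and 2444 CPM) and H2-Q4 (314, 232 and 359 CPM). Prss34 at 4.99, 2.79 and 5.53 CPM and Trp53inp1 at 60.4, 43.4 and 58.5 CPM had the same shape.

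**Figure D5:**
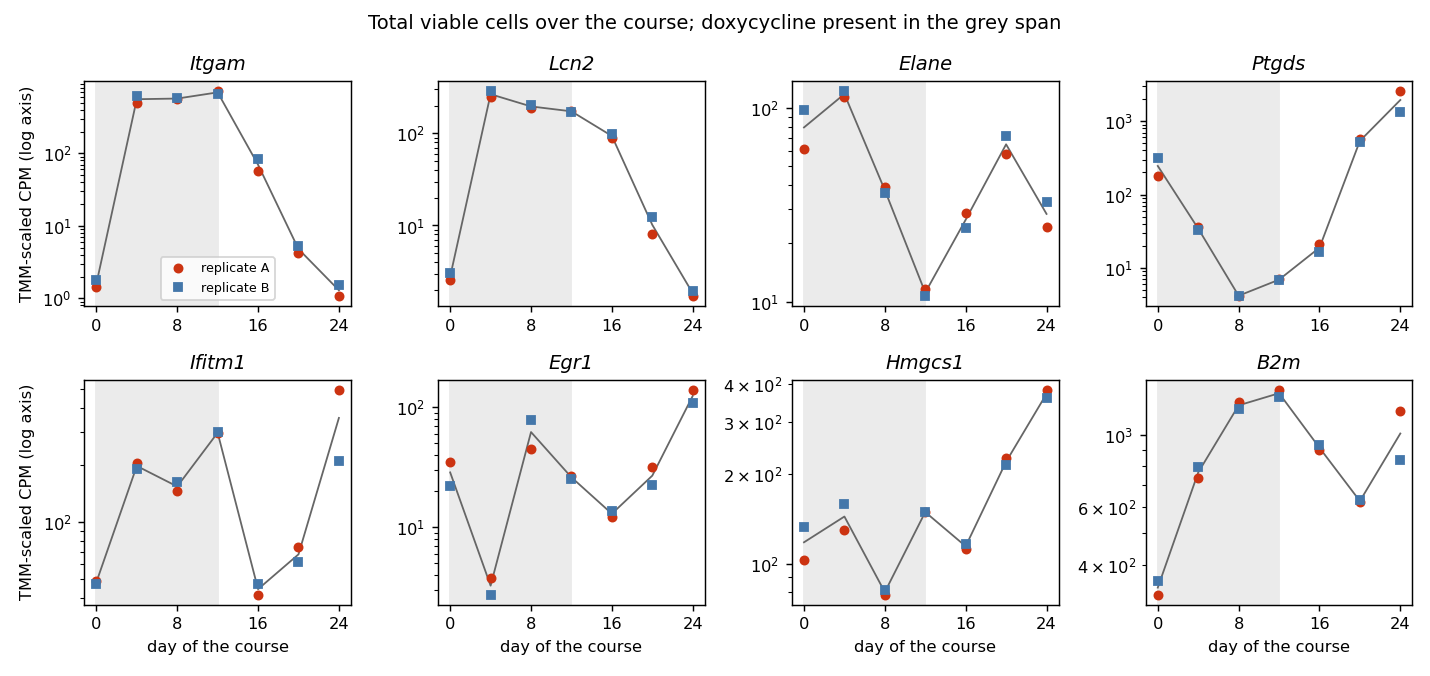
TMM-scaled CPM on a log axis over the 24 days of the course in total viable cells for 8 genes, with red circles for replicate A, blue squares for replicate B, a line through the group means, and grey for the span with doxycycline. Itgam and Lcn2 go down through day 24, Ptgds goes up, Elane peaks at day 20 in the withdrawal phase, and B2m is lowest there.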

How the data were processed

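RNA was measured by sequencing in sorted AML246 cells. Each deposited file lists, per its header, a raw read count and a length in bases for every Entrez gene, so the counts are those the authors deposited, not normalised. Per the submitters' processing notes, the authors used featureCounts, edgeR and limma with mm10. No aligner is named in the sources used here. All genes in the files pass 0.5 CPM in 3 or more libraries. Symbols and positions came from a RefSeq GRCm38 table (13216 of 13652 genes).

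All 16 libraries (8 groups of 2) were scaled with TMM and their counts fitted together in edgeR 4.0.16 (limma 3.58.1, R 4.3.3), two-sided, with robust dispersions and 8 residual degrees of freedom. The common BCV, edgeR's measure of the spread between replicates beyond counting noise, was 10.9%, and that spread may be technical. filterByExpr removed 0 genes. Adjustment was over all genes. The SE is the log2 fold over the square root of F. The script was tested on simulated data. Ratios of A over B used a prior of 0.5 CPM.

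Named genes were Spi1, Itgam, H2-Ab1, Ptgds, the 12 largest rises and falls above 10 CPM with non-overlapping libraries, up to 3 called genes per list with the lowest p, and the 8 largest replicate differences each way. The largest rises and falls were taken among called genes, and predicted genes and Riken clones were not ranked for these or for the replicate differences. Other list members named were chosen after their values were seen. Some genes that this rule names are not reported here. The 35 lists were written from textbook knowledge, some genes are in more than 1, and 110 of their symbols are not analysed here. The groups and lists were chosen with earlier results of these data known. Alternatives were RLE factors, library size alone, filters, DESeq2 1.42.0, limma-voom, the 4 libraries alone, a replicate block and leaving out libraries. Removing a loess trend on log2 gene length (span 0.4) from each library was added after seeing the data.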

Additional observations from a re-analysis of the deposited data

Results flagged for a closer look

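The test of the difference between the step from 8 to 12 days off and the step from 4 to 8 days off marked 117 genes, and 8 of the genes named above are among them. On the log2 scale the later step minus the earlier one was 1.98 for Itgam, -2.98 for Ptgds and -2.49 for Elane. It was 1.83 for Prss34, 1.23 for B2m, 1.06 for H2-Q4, 1.08 for H2-K1 and 0.91 for Trp53inp1. Both steps contain the 8-day libraries, so an error in these enters both with opposite sign. Without replicate A of 8 days off 2 genes differed, and without replicate B 9.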

How the results depend on the processing

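The edgeR count of 507 genes (12 against 8 days off) stayed within 1.5 times with RLE factors, library size alone, no filter, a filter at a mean of 1 CPM and limma-voom (486 to 580). It was 1195 with DESeq2 (618 higher, 577 lower), 796 with the gene length trend removed, and 0 in a fit of the 4 libraries alone, where 1005 genes had an unadjusted p under 0.05. The replicate letters are not paired by the labels and 2 letters cannot settle it, although A minus B correlated at 0.24 between the 2 times. A replicate block gave 987 calls, which held all 507. Leaving out 1 library gave 29 to 6159 calls: 125 without replicate A and 29 without replicate B of 8 days off, 146 without replicate A and 6159 without replicate B of 12 days off. A time left with 1 library was assumed to vary like the other groups. The count of 117 genes whose steps differed was 310 with DESeq2, 395 with the length trend removed and 0 in the libraries compared alone (835 at an unadjusted p under 0.05). Leaving out 1 library gave 2 to 3356 (30 without replicate B of 4 days off, 2 and 9 without replicates A and B of 8 days off, 310 and 3356 without replicates A and B of 12 days off), and the other settings 107 to 155. The 265 genes that differed between replicates were 475 at a minimum of 1 CPM, 88 at 50 CPM, and 254 to 305 with the other scalings. Of the 71 called genes chosen by the naming rule, 71 stayed called with RLE factors, 70 with DESeq2, 68 with limma-voom or without the length trend, 66 with library size alone, 36 and 71 without replicates A and B of 12 days off, and 32 and 12 without replicates A and B of 8 days off. None of these 71 genes changed direction in the 13 alternatives, which reuse the libraries that the genes were called from.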

Other observations

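Several gene groups of cell metabolism, stress and adhesion gave 0 to 2 calls each in the comparison of 12 with 8 days off, where 3.71% of all genes were called, and nothing particular to these groups is read from the counts. Of 37 lysosomal genes 2 rose, among them Smpd1, acid sphingomyelinase (86.1 and 77.0 CPM, then 150.4 and 103 CPM), and neither was called with replicate B alone. Of 27 hypoxia response genes 1 rose, Eno2. Of 24 ATF4 and amino acid stress genes, Pycr1, a proline synthesis enzyme, rose (10.96 and 11.3 CPM, then 18.5 and 16.4 CPM) and Slc7a11 fell. Of 34 ribosome biogenesis factors 1 rose, Rcl1 (log2 fold 0.48), and of 21 unfolded protein response and chaperone genes edgeR called 0 (3 at an unadjusted p under 0.05), DESeq2 1 and limma-voom 0. Among 22 actin and adhesion genes 1 fell. DESeq2, which called 1195 genes in all, called 8 lysosomal and 6 hypoxia response genes, all higher, 3 ribosome biogenesis factors, all higher, 1 ATF4 and amino acid stress gene higher and 2 lower, and 4 actin and adhesion genes higher and 1 lower.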
